A study of Mus musculus with 6 samples.

Results

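The genes described here carry signals of nutrient state: 37 genes of insulin, mTOR and leptin signalling, a list made by pathway membership and matched by gene symbol, read from gene-level RNA-seq of the suprachiasmatic nucleus (SCN), the hypothalamic seat of the central circadian clock. The list was chosen with earlier results of these data known. All 37 were listed in the data, among 17645 genes listed in at least 1 library, and all 37 were among the 14438 genes with enough counts to be tested. The mice were female and C57BL/6, and were killed in the dark at zeitgeber time (hours after lights on) 12 to 14. Each of the 6 libraries held equal RNA from 2 SCN, taken by needle from frozen coronal sections. By their titles, V comprises replicates 2, 3 and 4, r1r2V comprises replicates 1, 4 and 5, and the series title gives the study as a deletion of both REV-ERB genes (Nr1d1 and Nr1d2) in GABAergic neurons, so r1r2V was read as the deletion and V as its control. The labels name neither the Cre driver nor the alleles, and give no age. They do not say whether pools came from separate animals, so the p-values reflect variation among these 6 libraries alone, which may be technical.

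As background, insulin and IGF-1 bind receptor tyrosine kinases that phosphorylate IRS proteins, which recruit PI3-kinase. PI3-kinase activates PDK1 and AKT, and AKT restrains GSK3, the FOXO transcription factors and the TSC complex, which is the brake on RHEB and mTOR complex 1. Leptin, the adipocyte hormone, signals in hypothalamic neurons through its own cytokine-type receptor, and SOCS proteins and the phosphatase PTP1B, encoded by Ptpn1, limit both hormones. REV-ERBs are clock-driven transcriptional repressors. The study is known for asking how REV-ERB in GABAergic neurons bears on the daily course of insulin sensitivity.

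Total expected counts were 15729603 to 17780928 per library. Neither targeted gene was lower in the libraries labelled r1r2V. Nr1d1 had FPKM values (fragments per kilobase of transcript per 1e6 mapped fragments) of 21.1, 23.4 and 21.3 in V and 73.8, 57.9 and 54.4 in r1r2V, and Nr1d2 had 38.8, 39.7 and 37.01 in V and 51.1, 59.9 and 48.4 in r1r2V. Direction therefore rests on the sample titles throughout. The tables give gene totals and not exons, so they do not show the deletion itself. Markers of SCN neurons (10 of 10 listed) had summed FPKM of 585 to 767 in V and 431 to 791 in r1r2V. GABA neuron markers (3 of 3) had 299 to 332 and 271 to 332. Markers of other cells were present too: oligodendrocyte markers summed to 2035 to 2883 and 2015 to 2513, and arcuate and other neighbouring neuron markers to 2460 to 2604 and 1429 to 3115. Single peptide genes dominate 2 of these sums. The SCN neuron sum is mostly Avp (304 to 725 FPKM), and the neighbouring neuron sum is mostly Oxt (1096 to 2075 FPKM). No marker on these lists was at 0 in any library, though Rax (0.04 FPKM at its lowest) and Agrp (0.21) were close to it. By the abundant oligodendrocyte and neighbouring neuron markers, the samples were SCN with surrounding tissue.

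Sequence in the promoters is shown first, since 2 passages below refer back to it. Any link between sequence and expression was not tested. Of the 37 genes, 31 had a promoter window (250 bases before to 50 after a start) in the RefSeq table of GRCm38.p6. The core motif of nuclear receptors, AGGTCA, searched on both strands, was in the windows of 3 of the 31 (Akt1, Igf1r and Pdpk1), beside 18.1% of all 27025 genes. The longer form TAGGTCA, which contains AGGTCA, was in 0 of 31 beside 2.97%, and the FOXO motif GTAAACA was in 1 (Akt1) beside 4.05%. The E-box CACGTG, the element bound by the clock activators CLOCK and BMAL1 among other factors, was in 4 of 31 (12.9%), beside 8.09% of all genes. These were 3 of the receptor substrate genes and Rheb, and they are printed because their flanks are alike. All are on the minus strand, are written 5′ to 3′ along the gene, and carry the E-box in capitals. They lie at chr1:82291539-82291564 (Irs1), chr8:11008958-11008983 (Irs2), chrX:141725356-141725381 (Irs4) and chr5:24842442-24842467 (Rheb).
Irs1: gaggctccgtCACGTGttttgctcct
Irs2: aacgcagagtCACGTGttgttttgct
Irs4: aggcgacggtCACGTGttgttttgcc
Rheb: cgcgcgcggtCACGTGggtgtgttgt
All 4 windows share a run of 8 bases, GTCACGTG, which 2.55% of all genes had in a window. The 3 Irs windows share 10 bases, GTCACGTGTT, found in 25 of 27025 genes. Irs2 and Irs4 share 17 bases, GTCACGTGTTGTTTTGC, found in those 2 genes and no other of the table. The E-box starts 115 bases before the start in Irs1, 44 in Irs2, 154 in Irs4 and 96 in Rheb. A match is a description of the letters and not evidence of binding. The windows of Irs1, Irs2 and Irs4 were compared after they had been seen.

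The other sequence belongs to Stxbp4, the one gene of the 37 that passed the test. Its RefSeq 5′ end faces that of Cox11, a copper chaperone gene of cytochrome oxidase assembly that is read the other way, across 47 bases at chr11:90638137-90638183 of GRCm38.p6. They are written here on the strand of Stxbp4 (minus), with CG pairs in capitals.
Stxbp4 to Cox11: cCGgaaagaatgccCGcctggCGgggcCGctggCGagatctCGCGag
The stretch has 7 CG pairs and 72.3% G and C. The full 300-base window of Stxbp4 holds 27 CG pairs, a number reached by 15.5% of the 32851 windows in the table, and none of the 4 motifs.

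The transcripts of the pathway spanned a wide range of levels. Averaged over the 6 libraries, Rheb had 130 FPKM, above 95.7% of tested genes, followed by Gsk3a (74.2), Grb2 (66.2), Akt1 (63.1) and Slc2a1 (61.5). The lowest were Lepr (0.833 FPKM, above 9.35% of tested genes), Slc2a4 (0.870) and Socs3 (1.27). Stxbp4 (4.90) stood at place 27 of 37.

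**Figure D1:**
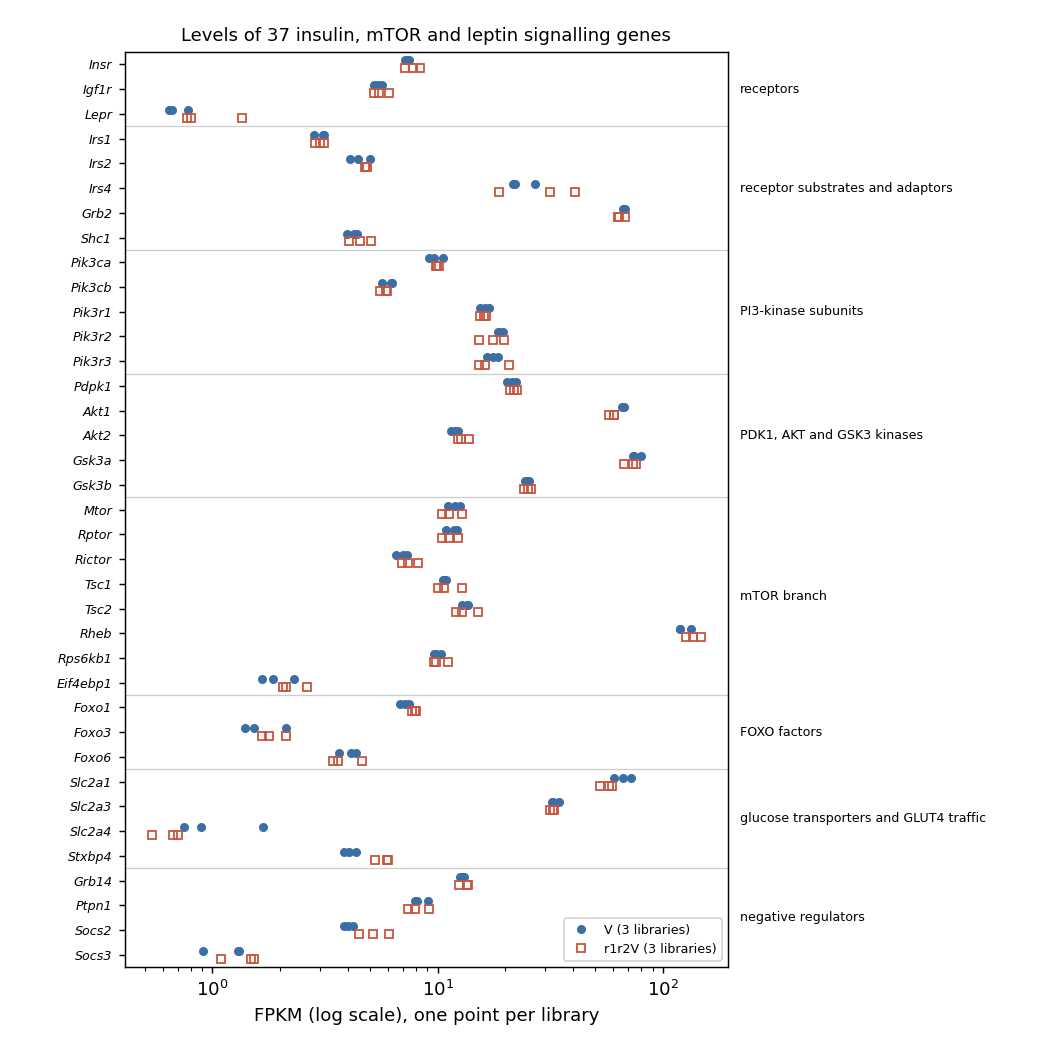
FPKM of each of the 37 genes on a log axis, 1 point per library (filled circles V, open squares r1r2V, 3 each), in blocks by role. Mean levels run from 0.833 FPKM (Lepr) to 130 FPKM (Rheb), and the groups overlap for 30 genes.

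Of the 37 genes, 1 rose (Stxbp4), 0 fell and 36 did not pass edgeR's quasi-likelihood test at a Benjamini-Hochberg adjusted p of 0.05 over all genes. Among all 14438 genes tested 0.416% passed, 0.298% higher and 0.118% lower. At an unadjusted p under 0.05, 3 were higher (beside 3.95% of all genes) and 3 lower (beside 3.63%), together 16.2% of the 37 beside 7.58% of all genes. The FPKM of the groups did not overlap for 7 genes. In 4 of them r1r2V was above V (beside 6.34% of all genes) and in 3 below (beside 7.6%), together 18.9% of the 37 beside 13.9%. The median log2 fold change (r1r2V minus V) was 0.04, beside 0.01 for all genes, and 23 of 37 were positive (62.2% beside 52.5%). Because the list was chosen with earlier results of these data known, these shares cannot be told apart from that choice. For 30 of 37 genes the 95% interval of the change lay within 1.5-fold in both directions (81.1%, beside 80.3% of all genes). The intervals of the 7 others (Lepr, Irs4, Eif4ebp1, Slc2a4, Stxbp4, Socs2 and Socs3) reached past 1.5-fold.

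**Figure D2:**
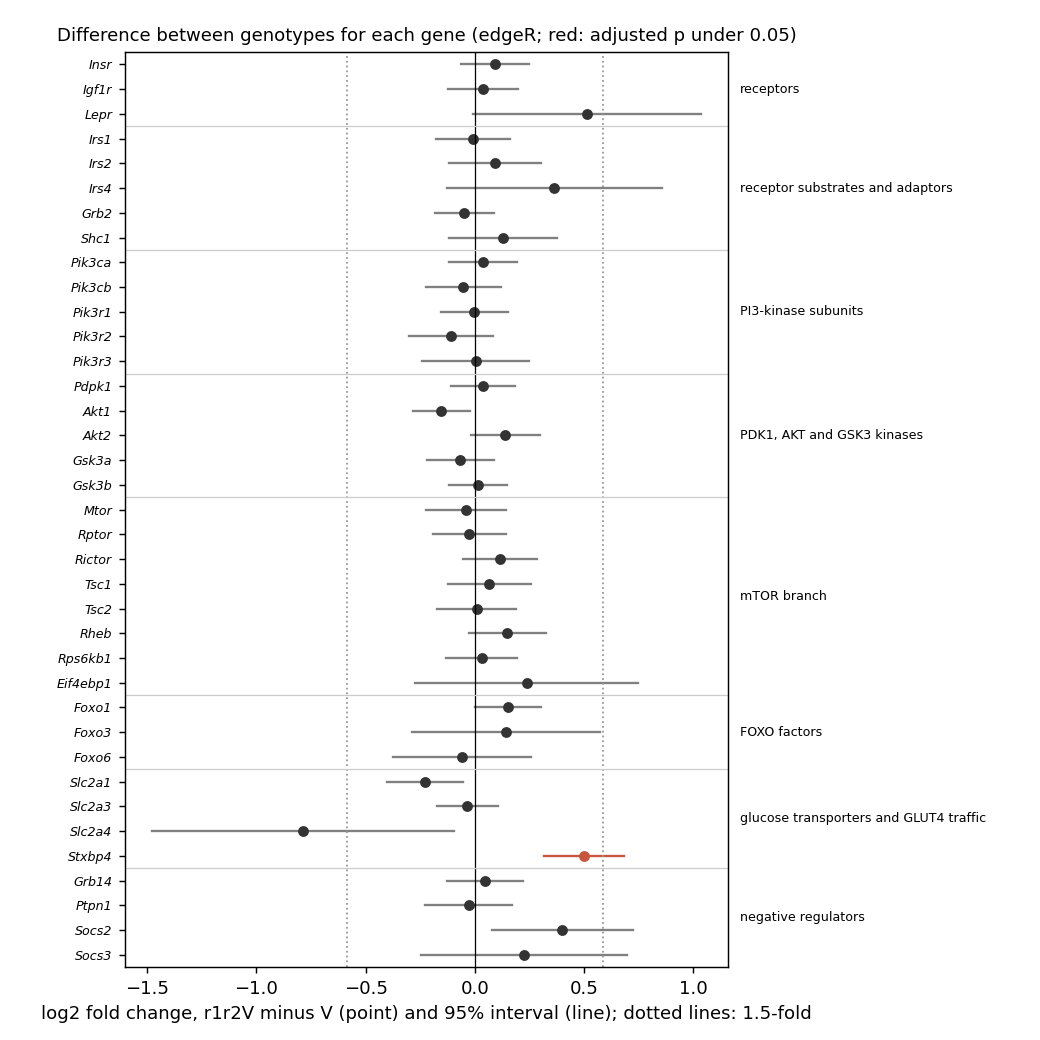
Log2 fold change of each gene (point) with its 95% interval (line), by role, with dotted lines at 1.5-fold. Stxbp4 (0.50, interval 0.32 to 0.68) is the 1 gene in red, with an adjusted p under 0.05, and 30 intervals stay inside the dotted lines.

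Stxbp4 encodes synip, a partner of syntaxin 4 that takes part in insulin-driven insertion of the glucose transporter GLUT4 into the cell membrane. Its FPKM was 4.02, 4.34 and 3.83 in V and 6.00, 5.93 and 5.26 in r1r2V. Every library labelled r1r2V was above every V library, and the gap between the groups was wider than the range within either. The mean rose from 4.06 ± 0.258 to 5.73 ± 0.409 FPKM (SD, n = 3 each), 1.41-fold (95% interval 1.25 to 1.60), with a log2 fold change of 0.50, a standard error of 0.0817 and an edgeR adjusted p of 0.0335. The size was steady, at 0.46 to 0.55 on the log2 scale without any 1 library, but the call was not. It ended without V replicate 2 (adjusted p = 0.240), V replicate 3 (0.0986), V replicate 4 (0.217), r1r2V replicate 1 (0.0877) or r1r2V replicate 4 (0.0876), and held without r1r2V replicate 5 (0.0245). On log2(FPKM + 1) and log2(FPKM + 0.1) with limma the adjusted p was 0.156 and 0.159, and over all 14 alternatives it ran from 0.00272 (DESeq2) to 0.240.

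Stxbp4 (chromosome 11, 90476492 to 90638136, minus strand, GRCm38) lies 8.13 Mb from the targeted Nr1d1. Cox11, whose start is 47 bases away across the stretch shown above, had 12.1, 12.8 and 12.4 FPKM in V and 11.8, 11.8 and 12.7 in r1r2V, groups that overlap. Its log2 fold change was -0.03 (95% interval -0.20 to 0.13), and the difference between the 2 neighbours was not tested. Of the 7 other genes tested within 1 Mb, Cox11 among them, 0 passed by edgeR and 2 had an unadjusted p under 0.05. These were Hlf, which encodes a D-box activator and output factor of the clock (log2 fold change 0.31), and Tmem100 (-0.76). All r1r2V libraries were above V for Hlf (18.5 to 23.9 FPKM, beside 16.9 to 17.5) and below V for Tmem100. They were also above V for Tom1l1, midpoint 0.11 Mb away (12.3 to 14.8 FPKM, beside 11.1 to 12.1, log2 fold change 0.19). Groups did not overlap for 13.9% of all genes. Of the 90 tested genes lying wholly between Stxbp4 and Nr1d1, 0 passed and 14 had an unadjusted p under 0.05, beside 1095 of all 14438 genes (7.58%). Thra, named next, extends to or past the edge of Nr1d1 that is nearer Stxbp4, and so is not among the 90. Genes that passed elsewhere on the plotted stretch of the chromosome were Nr1d1 itself, its neighbour Thra, the thyroid hormone receptor α gene (midpoint 8.20 Mb from that of Stxbp4, log2 fold change -0.60, edgeR adjusted p = 0.00773), Fkbp10 (9.86 Mb, -0.87, 0.0446) and, on the other side, Synrg (-6.55 Mb, -0.47, 0.00921). They were named after their values were seen. Linkage to the targeted allele and an effect of the deletion cannot be told apart in this design. Of the 6 pathway genes on chromosome 11 (Slc2a4, Rps6kb1, Stxbp4, Grb2, Socs3 and Rptor), only Stxbp4 passed. None of the 37 was on chromosome 14, which carries Nr1d2.

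**Figure D3:**
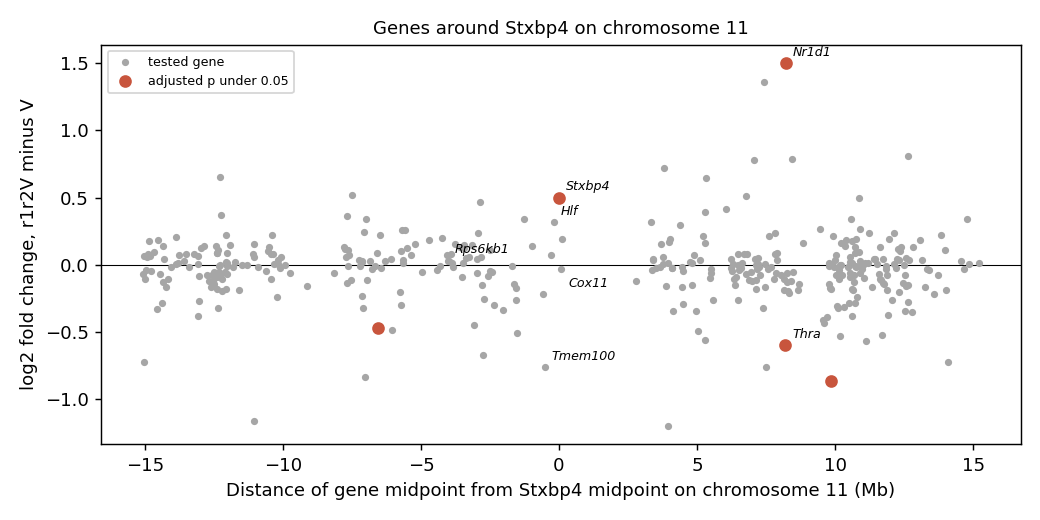
Log2 fold change of tested genes on chromosome 11 against distance of the gene midpoint from that of Stxbp4, in Mb, with genes past the threshold in red. Stxbp4 (0.50) stands above its neighbours Cox11 (-0.03), Tom1l1 (0.19) and Hlf (0.31), and the midpoint of Nr1d1 lies 8.21 Mb to the right.

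The 3 glucose transporters had negative log2 fold changes and did not pass. Slc2a1 encodes GLUT1, the transporter of the blood-brain barrier and of astrocytes. It had 60.6, 66.8 and 72.1 FPKM in V and 57.4, 52.8 and 59.5 in r1r2V, so all 3 libraries labelled r1r2V were below all V libraries, by a small margin. The mean was 66.5 ± 5.72 in V and 56.6 ± 3.46 in r1r2V (SD, n = 3 each), a log2 fold change of -0.23 (95% interval -0.40 to -0.05, edgeR unadjusted p = 0.0159, adjusted p = 0.536). The summed FPKM of 5 endothelial markers, genes of the vessel wall, was 94.3 to 100.1 in V and 101 to 114 in r1r2V. That sum is mostly Ly6c1 (57.1 to 66.5 in V and 65.0 to 71.4 in r1r2V) and Cldn5. Taken singly, all 5 had overlapping groups and 0 passed, with log2 fold changes of 0.27 for Cldn5, 0.15 for Ly6c1, 0.12 for Pecam1, -0.07 for Abcb1a and -0.17 for Flt1. Their part in the Slc2a1 value was not tested. In bulk tissue, fewer cells of a type and less RNA per cell cannot be told apart. Slc2a4 encodes GLUT4, the insulin-responsive transporter, and stood among the lowest transcripts. It had 0.89, 1.67 and 0.75 FPKM in V and 0.67, 0.54 and 0.70 in r1r2V, from 26 to 80 counts per library. All r1r2V libraries were below all V libraries, V replicate 3 stood apart, and the other V libraries were close to r1r2V. The log2 fold change was -0.79 (95% interval -1.48 to -0.10, edgeR adjusted p = 0.596), and it was -0.36 without V replicate 3. That library also held the most Pomc RNA, a marker of arcuate neurons (328 FPKM, beside 5.81 and 24.3 in the other V libraries). Of the same marker list, Agrp, Npy, Cartpt, Hcrt, Pmch and Nr5a1 were also highest of V there. Kiss1, Trh and Oxt were lowest of V there. The part of such neurons in the Slc2a4 value was not tested. Slc2a3, which encodes the neuronal transporter GLUT3, had 33.2 ± 1.28 FPKM in V and 32.3 ± 0.630 in r1r2V (SD, n = 3 each), a log2 fold change of -0.04.

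**Figure D4:**
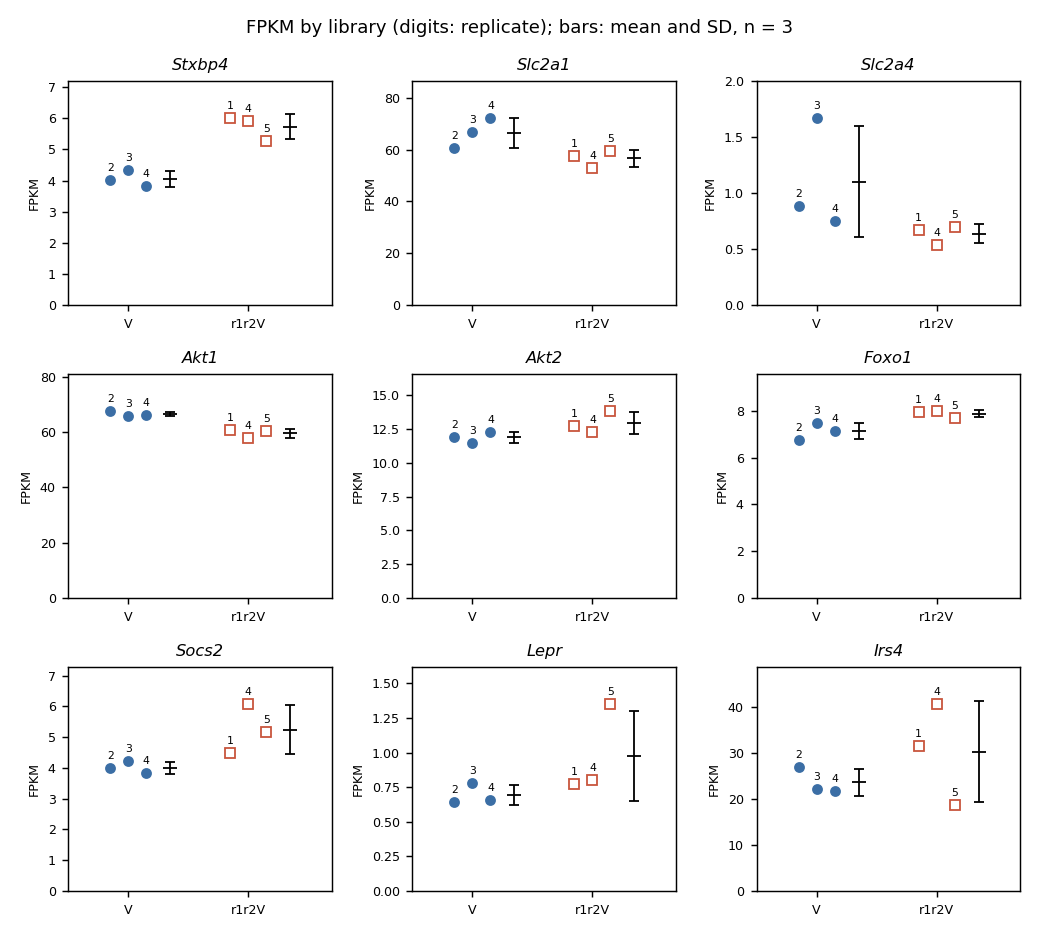
FPKM of 9 genes in each library (filled circles V, open squares r1r2V, digits give the replicate), with the mean and SD (n = 3) beside each group and axes from 0. Stxbp4 shows a clear gap between groups, V replicate 3 stands apart for Slc2a4 and r1r2V replicate 5 for Lepr, and Irs4 spreads widely within r1r2V.

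Receptors did not pass. Lepr encodes the leptin receptor and had 0.64, 0.78 and 0.66 FPKM in V and 0.77, 0.80 and 1.35 in r1r2V. Replicates 1 and 4 of r1r2V sat at the upper end of V, and replicate 5 was far above. The log2 fold change was 0.51 (95% interval -0.01 to 1.03, edgeR adjusted p = 0.660), and 0.20 without r1r2V replicate 5. That library also held the most RNA of meningeal fibroblast markers (summed FPKM 66.0, beside 28.8 to 42.5 in all others). The largest part of that sum is Igf2 (37.5 FPKM, beside 12.6 to 26.4). Col1a1, Col1a2, Dcn and Slc6a13 were also highest in that library, and Lum was highest in r1r2V replicate 4. Neuron markers went both ways in r1r2V replicate 5. Of neighbouring neuron markers, Pmch (896 FPKM, beside at most 331), Hcrt and Cartpt were highest, and Agrp, Kiss1 and Trh lowest. Of SCN markers, Vip (7.87 FPKM, beside at least 35.4), Lhx1, Rorb, Grp, Prok2 and Nms were lowest. Avp (725 FPKM, beside at most 675) and the SCN marker sum (791) were highest. The part of such cells in the Lepr value was not tested. Insr, the insulin receptor gene, had 7.15, 7.45 and 7.42 FPKM in V and 8.37, 7.80 and 7.17 in r1r2V. The groups overlapped and the log2 fold change was 0.09 (95% interval -0.07 to 0.25). Igf1r, the IGF-1 receptor gene, had 5.45 ± 0.225 and 5.57 ± 0.439 FPKM (SD, n = 3 each).

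Among receptor substrates and adaptors, 0 of 5 passed. Irs4 was the most abundant IRS transcript in the SCN samples, with 26.9 FPKM on average, beside 4.66 for Irs2 and 3.00 for Irs1. Irs4 is an X-linked member of the family that is known for its expression in the hypothalamus. It had 27.0, 22.1 and 21.7 FPKM in V and 31.5, 40.5 and 18.6 in r1r2V. The r1r2V libraries held both the highest values and the lowest, and the log2 fold change of 0.36 (95% interval -0.13 to 0.85, edgeR adjusted p = 0.707) ran from 0.09 without r1r2V replicate 4 to 0.61 without r1r2V replicate 5. Around the E-box, the Irs4 promoter shares 10 bases with that of Irs1 and 17 with that of Irs2. Irs1 and Irs2 had log2 fold changes of -0.01 (interval -0.18 to 0.16) and 0.09 (-0.12 to 0.30). Grb2, an adaptor that links receptors to RAS and the highest of this role, had 67.5, 66.7 and 68.0 FPKM in V and 63.6, 68.2 and 63.2 in r1r2V, overlapping groups with a log2 fold change of -0.05. Shc1, another adaptor, had 0.13.

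PI3-kinase subunits differed little between the groups. All 5 log2 fold changes lay between -0.11 and 0.04, none passed, and all 5 intervals stayed within 1.5-fold. Pik3r2, which encodes the regulatory subunit p85β, had both the highest mean level of the role (18.2 FPKM) and the largest change. It had 18.6, 19.5 and 18.6 FPKM in V and 19.6, 15.3 and 17.5 in r1r2V, with r1r2V replicate 1 above all V libraries and the others below (log2 fold change -0.11, interval -0.30 to 0.08). The regulatory genes Pik3r1 and Pik3r3 stood at 16.1 and 17.5 FPKM and the catalytic genes Pik3ca and Pik3cb at 9.87 and 5.93.

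Akt1 and Akt2 had log2 fold changes of opposite sign, and neither passed. Akt1, which encodes the main AKT kinase in most tissues, had 67.5, 66.0 and 66.4 FPKM in V and 60.6, 57.8 and 60.4 in r1r2V. All r1r2V libraries were below all V libraries, with tight groups (66.6 ± 0.818 and 59.6 ± 1.60, SD, n = 3 each). The log2 fold change was -0.15 (95% interval -0.28 to -0.02, edgeR unadjusted p = 0.0243, adjusted p = 0.579). Akt2, the isoform tied most closely to insulin-stimulated glucose uptake, had 11.9, 11.5 and 12.3 FPKM in V and 12.7, 12.3 and 13.8 in r1r2V. Its lowest r1r2V library was just above its highest V library (log2 fold change 0.14, interval -0.02 to 0.30, adjusted p = 0.676). The difference between the isoforms' changes was not tested. Gsk3a, a kinase that AKT inhibits, had 79.7, 73.9 and 74.5 FPKM in V and 73.6, 67.4 and 76.1 in r1r2V, overlapping groups (log2 fold change -0.07). Gsk3b and Pdpk1, which encodes PDK1, had log2 fold changes of 0.01 and 0.04.

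In the mTOR branch 0 of 8 passed, and their median log2 fold change was 0.05. Rheb encodes the GTPase that switches on mTOR complex 1 and was the most abundant transcript of all 37. It had 133, 119 and 119 FPKM in V and 127, 147 and 136 in r1r2V. Replicates 4 and 5 of r1r2V were above all V libraries and replicate 1 was within them (log2 fold change 0.15, interval -0.03 to 0.32, edgeR adjusted p = 0.683). Eif4ebp1, the gene of a translation repressor that mTOR inactivates, had 1.66, 1.86 and 2.30 FPKM in V and 2.06, 2.13 and 2.64 in r1r2V. These rest on 26 to 40 counts per library, and the log2 fold change of 0.24 had an interval from -0.27 to 0.75. Mtor, the kinase itself, had 11.9 ± 0.732 and 11.5 ± 1.19 FPKM, and Rptor and Rictor, which encode the defining subunits of mTOR complexes 1 and 2, had 11.6 ± 0.660 and 11.4 ± 0.968, and 6.96 ± 0.403 and 7.49 ± 0.618 (SD, n = 3 each). Tsc1 and Tsc2, the brake on RHEB, had log2 fold changes of 0.07 and 0.01, and Rps6kb1, the S6 kinase gene, 0.03.

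The FOXO genes encode transcription factors that AKT keeps out of the nucleus, and 0 of 3 passed. Foxo1 had 6.77, 7.47 and 7.15 FPKM in V and 7.96, 7.98 and 7.70 in r1r2V. Every r1r2V library was above every V library, by a margin smaller than the spread within V, with a log2 fold change of 0.15 (95% interval 0.00 to 0.30, edgeR unadjusted p = 0.0497, adjusted p = 0.655). Foxo3 and Foxo6 had 0.14 and -0.06, with overlapping groups.

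Negative regulators did not pass either. Socs2, a suppressor of cytokine and growth hormone signalling that STAT5 induces, had 4.00, 4.21 and 3.82 FPKM in V and 4.48, 6.07 and 5.18 in r1r2V. All r1r2V libraries were above V, replicate 1 only just, and the log2 fold change was 0.40 (95% interval 0.08 to 0.72, edgeR unadjusted p = 0.0202, adjusted p = 0.567). Socs3, the STAT3-induced brake on leptin signalling, had 1.3, 1.31 and 0.91 FPKM in V and 1.53, 1.48 and 1.09 in r1r2V, overlapping groups with a log2 fold change of 0.22 (interval -0.25 to 0.69). Grb14, an adaptor that inhibits the insulin receptor and the highest of this role, had 12.6, 12.9 and 13.0 FPKM in V and 12.4, 13.6 and 13.7 in r1r2V (log2 fold change 0.05). Ptpn1 had -0.03.

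Of other genes of the pathway, from a list of 114 symbols outside the 37, 111 were listed and 110 tested, with a median log2 fold change of 0.01 beside 0.01 for all genes. Ins1, Ins2 and Lep, the hormone genes, were in none of the tables.

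At an unadjusted p under 0.05, 3 of these 110 were higher and 5 lower (7.27%, beside 7.58% of all genes). Lower, with all 3 libraries labelled r1r2V below V, were Ddit4, which encodes REDD1, a stress-induced inhibitor of mTOR complex 1 (30.6 ± 2.57 to 24.9 ± 1.07 FPKM, log2 fold change -0.30, edgeR adjusted p = 0.299), and Trib1, a pseudokinase gene (-0.29). Slc7a5, a leucine transporter gene whose cargo feeds mTOR (-0.18), and Nprl3, a subunit of the amino acid brake GATOR1 (-0.20), were likewise below V in every r1r2V library. Pias3, an inhibitor of STAT3, was lower too (-0.17). Higher were Igf1 (0.63, with overlapping groups), Sgk3, an AKT-like kinase gene (0.38), and Cish, another STAT5-induced SOCS family gene (0.36). None of these 8 passed, with adjusted p from 0.299 to 0.647.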

How the data were processed

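Per the file headers, the authors deposited, for each gene and library, an expected count (an estimated read number that need not be whole), an FPKM value and an average transcript length. RSEM 1.2.12, Bowtie2 2.2.5, HISAT2 2.0.4, DESeq2, GATK, Cufflinks 2.2.1 and StringTie 1.0.4 are named, with build mm10, per the submitters' processing notes. What each did, and whether strand was used: not given in the sources used here. A gene missing from a table was taken as 0. Expected counts were rounded, filtered with filterByExpr (minimum count 10), scaled by TMM and tested with edgeR 4.0.16 (quasi-likelihood) in R 4.3.3, over 14438 genes, with Benjamini-Hochberg adjustment and a threshold of 0.05. Intervals are 95% from the same fit. Levels and overlap of groups use the deposited FPKM. Alternatives used DESeq2 1.42.0, limma 3.58.1, other scalings and filters, and leaving out each library. Tested on simulated counts of this comparison (14438 genes), edgeR recovered 14% of 1.2-fold, 56% of 1.5-fold, 82% of 2-fold and 100% of 4-fold changes, and 11.3% of its calls were genes that had not been changed.

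The 37 genes and the other lists were chosen with earlier results of these data known. Values in every library are given for members past the threshold or with an unadjusted p under 0.05, and, in each role, for the member with the largest change and that with the highest level. Of other pathway genes, those past the threshold and up to 8 with an unadjusted p under 0.05 are named. One gene that belongs on that list is not reported here and was left out of it after the fit, so counts and medians over the list do not describe the whole pathway. No member had a near-identical copy (95% identity over 50% of the shorter transcript) among 17551 genes searched. Exons of 9 members overlap a gene on the other strand by at least 50 bases in GENCODE M21, among them Irs1, Irs2, Irs4, Gsk3a, Foxo1 and Slc2a1, so those totals could include its reads. Positions are RefSeq's for GRCm38, the assembly that mm10 names.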

Additional observations from a re-analysis of the deposited data

How the results depend on the processing

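No paired analysis was possible because number 4 alone occurs in both groups. Over all genes, 43 were higher and 17 lower, 69 and 40 with DESeq2, and 19 to 52 and 7 to 24 without 1 library. Of the 37 genes, 1 was higher, and 0 on log2(FPKM + 1), on log2(FPKM + 0.1) and without any 1 library other than r1r2V replicate 5 (0 to 1). None of either list was lower under any of the 14 alternatives. The median log2 fold change of the 37 ran from 0.02 to 0.05 without 1 library, and that of the other pathway genes from -0.0234 to 0.0168. The causes were not tested, though leaving out a library leaves fewer samples. Over 45 single genes and 14 alternatives, 623 of 630 values kept their side of the threshold, and the other 7 were Stxbp4 no longer passing. Of the 37, 13 genes changed sign somewhere, none beyond -0.14 or 0.04 there. The simulation puts 1.2-fold changes mostly out of reach, and Lepr, Slc2a4, Eif4ebp1 and Socs3 are limited further by low counts.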

Other observations

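Of the 37 genes, 13 had their highest FPKM of all 6 libraries in r1r2V replicate 1 (35.1%, beside 23.0% of all genes tested). These were Insr, Igf1r, Pik3r2, Mtor, Rptor, Rictor, Tsc1, Tsc2, Rps6kb1, Foxo6, Stxbp4, Ptpn1 and Socs3. The median transcript length of these 13 was 6217 bases, beside 4854 for the 37, and 4 of them were shorter than that: Foxo6 (2528), Socs3 (2742), Pik3r2 (3164) and Ptpn1 (4213). Long members also ranked otherwise: Gsk3b (8308) was highest in r1r2V replicate 4 and Pik3ca (8917) in V replicate 3. Over all tested genes, those highest in r1r2V replicate 1 had a median length of 3736 bases, beside 2950 for all. The part of length in these ranks was not tested. The call of Stxbp4 ended without that library (adjusted p = 0.0877, edgeR with Benjamini-Hochberg adjustment), while its log2 fold change was 0.48.

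The average transcript length that the authors list for each gene shifts when the mix of isoforms shifts. For Lepr, with 3 listed transcripts, it was 5179, 5175 and 5289 bases in V and 5279, 5412 and 5240 in r1r2V, and the groups overlapped. Pik3r3, with 4 listed transcripts, was the member whose groups did not overlap. It had 4905, 4890 and 4870 bases in V and 4938, 4914 and 4937 in r1r2V. These lengths spanned 1.39% of their mean, and the difference was not tested.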
